A study of Mus musculus with 26 samples.

Results

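Regulatory T cells (Treg) from mice that lack BATF in all their cells were compared with Treg from wild-type (WT) mice. Of the 26 poly(A) RNA-seq libraries of the study, 4 enter this comparison, taken by their titles: WT Treg 1 and 2, and BATFKO Treg 1 and 2. Both groups were taken from C57BL6/J spleen and lymph nodes and were sorted fresh as CD4+hCD2+ cells. WT Treg had the genotype Foxp3-IRES-hCD2, a reporter that puts human CD2 on the surface of cells expressing Foxp3, and BATFKO Treg had the genotype Foxp3-IRES-hCD2.Batf-/-, so the reporter allele is common to both. The labels give neither age nor sex, and do not state if replicate libraries stem from different animals. Because Batf is missing throughout the body, effects within Treg and effects of other BATF-deficient cells on Treg cannot be told apart in these libraries. For reference, 4 libraries of a conditional loss are used, in which a Cre expressed with Foxp3 removes Batf: BATFcKO Treg YFP carry a Foxp3-IRES-YFPCre allele, a Foxp3-IRES-hCD2 allele and Batfflox/flox, and their WT Treg YFP the same Foxp3 alleles without the floxed Batf, both CD4+YFP+hCD2-. A further 4 come from Foxp3-IRES-hCD2 mice, sorted as central Treg (cTreg) and effector Treg (eTreg) by surface markers that include CCR7, high in cTreg and low in eTreg.

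BATF is a small basic leucine zipper protein of the AP-1 family. It has no activation domain of its own, binds DNA as a dimer with a JUN protein, and recruits the interferon regulatory factors IRF4 and IRF8 to composite sites that hold an AP-1 and an IRF half-site side by side. In conventional T cells it is required for Th17 and follicular helper differentiation, and in Treg it is known for the effector and tissue-resident state, whose cells leave lymphoid organs for skin, gut and fat.

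Library totals were 7171323 and 6243918 counts in WT Treg and 7300917 and 6268841 in BATFKO Treg. Levels are given as CPM (reads of a gene relative to its TMM-scaled library total), always in the order library 1, library 2, and changes as log2 fold changes ± SE of BATFKO over WT Treg, with p-values of edgeR's quasi-likelihood test adjusted by the Benjamini-Hochberg method over all 12227 tested genes. A gene was called at an adjusted p below 0.05. The spread behind each test was estimated over 13 groups of 2 libraries, and it measures only the variation between these samples. Beside the groups described above, they were Foxp3R397W Treg and Foxp3KO Treg, each with a WT Treg control, and WT Tconv, WT Teff and WT Tnaive. The Foxp3KO Treg and their controls were sequenced deeper, at 26321134 to 34613707 counts a library. The libraries numbered 1 and 2 differed from each other more within WT Treg and BATFKO Treg than in most other groups. The chi-square over its degrees of freedom was 22.7 in WT Treg and 29.8 in BATFKO Treg, so each library is shown. In such bulk RNA, fewer cells of a type and less RNA per cell cannot be told apart.

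Batf itself (chromosome 12, 85686669 to 85709087 on mm10) stood at 46.1 and 82.9 CPM in WT Treg and 7.22 and 6.83 in BATFKO Treg (-3.19 ± 0.33, edgeR adjusted p = 1.7e-05). Reads were thus still assigned to the gene in both knockout libraries, and this transcript does not measure the protein. Foxp3 stood at 404 and 505 CPM in WT Treg and 408 and 574 in BATFKO Treg (0.11 ± 0.15, adjusted p = 0.93), and Cd4 at 685 and 829.6 CPM in WT Treg and 770.2 and 847 in BATFKO Treg, so all 4 libraries carried the markers of their gate. The Y-linked Ddx3y had 0 reads in all 4, while Xist was present in each.

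In BATFKO Treg 201 genes were called lower (1.64% of those tested) and 128 higher (1.05%), 329 in all or 2.69%. The median log2 change was -1.42 among the genes called lower and 1.19 among those called higher, and 139 and 78 of them changed at least 2-fold. For all 329, both libraries of one genotype lay above both of the other. Among all tested genes, 14.2% had BATFKO Treg below WT Treg in this way and 11.1% above. The median over all tested genes was -0.0035. When the spread was taken from these 4 libraries alone, 2 genes were called, and without WT Treg 2 the calls numbered 72 higher and 104 lower, so the counts rest on the spread borrowed from the other groups and in part on that library. With a replicate block, which treats same-numbered libraries as pairs, edgeR called 473 genes higher and 563 lower. List medians are given with the range they took when each of the 4 libraries was left out in turn. Counts of called list members are to be set against the 1.64% called lower and 1.05% called higher among all tested genes.

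**Figure D1:**
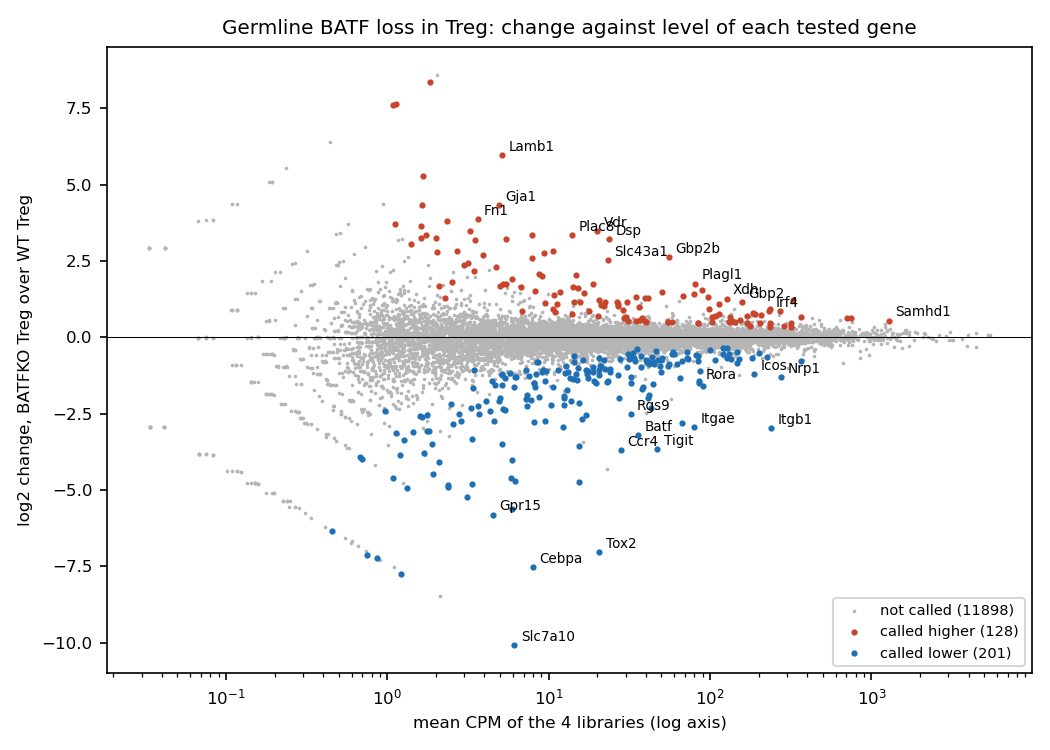
Log2 change of BATFKO over WT Treg (vertical axis) against the mean CPM of the 4 libraries (horizontal axis, log scale) for each of the 12227 tested genes. Blue points are the 201 genes called lower, red points the 128 called higher and grey points the 11898 not called; Itgb1 stands apart as an abundant gene with a large fall, and most large rises are of genes at low levels.

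The clearest falls were in genes by which T cells attach to tissue. Itgb1, the beta-1 chain shared by receptors for matrix and VCAM-1, had 453 and 398 CPM in WT and 61.6 and 45.6 in BATFKO Treg (-2.98 ± 0.15, edgeR adjusted p = 6.3e-10). Itgae, the alpha chain that pairs with beta-7 to bind E-cadherin on epithelium, had 137 and 147 CPM against 17.2 and 19.8 (-2.94 ± 0.20, adjusted p = 1.4e-07). In both genes the knockout libraries lay far below the wild-type ones and close to each other. Itga3 (chromosome 11, 95044474 to 95076801), an alpha partner of beta-1 for laminin, was at a lower level, 11.6 and 14.7 against 5.48 and 6.83 CPM (-1.09 ± 0.18, adjusted p = 0.0016). Cd44, the hyaluronan receptor of activated T cells, went from 196 and 179 to 127 and 83.8 CPM (-0.83 ± 0.14, adjusted p = 0.0016), and Emb, an adhesion-linked chaperone of lactate transporters, from 153 and 159 to 102 and 111 (-0.55 ± 0.09, adjusted p = 0.0021). Of 23 tested integrin and adhesion genes 4 were called lower (Itgb1, Itgae, Itga3 and Cd44) and 1, Ly6c2, higher, against 1.64% and 1.05% of all genes. The other 18 were not called, and the list had a median of -0.018 (-0.23 to 0.064). Ly6c2 was low, at 1.495 and 0.3304 against 4.14 and 5.997 CPM (2.37 ± 0.56, adjusted p = 0.025). Among those not called, Itga5 was at 15.9 and 20.5 against 8.69 and 13.8 CPM (adjusted p = 0.13, and 0.0073 with the replicate block). Ly6c2 (adjusted p = 0.23) missed the threshold without WT Treg 2. Ly6c2 (adjusted p = 0.11) missed the threshold without BATFKO Treg 2.

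Some chemokine receptors that guide Treg to barrier tissue fell as well. Ccr4, for skin and inflamed tissue, had 63.2 and 40.97 CPM in WT and 5.21 and 2.67 in BATFKO Treg (-3.69 ± 0.37, edgeR adjusted p = 1.0e-05). Ccr8, a receptor of tissue Treg, had 46.1 and 68.7 against 14.97 and 20.7 (-1.69 ± 0.26, adjusted p = 0.00072), and Cxcr3, the receptor for the interferon-induced chemokines, 30.7 and 64.6 against 15.2 and 18.7 (-1.49 ± 0.29, adjusted p = 0.0063). Gpr15, which draws T cells to the colon, had 64 and 55 reads in WT Treg and 2 and 0 in BATFKO Treg, a ratio of 59.8 (95% exact interval 16.2 to 499.8). Cxcr3 varied widely between the wild-type libraries. The groups did not overlap in these genes, which holds for all called genes. Of 18 tested chemokine receptor and egress genes 4 were called lower and 1 higher, against 1.64% and 1.05% of all genes, with a median of -0.57 (-0.77 to -0.51). The gene called higher was Xcr1, a receptor best known from cross-presenting dendritic cells, at 0.816 and 0.496 CPM in WT and 6.82 and 2.67 in BATFKO Treg (2.83 ± 0.56, adjusted p = 0.0063); Clec9a, which defines the same dendritic cells, had 0 reads in all 4 libraries. Ccr10 (2.85 and 3.14 against 0.668 and 0 CPM, adjusted p = 0.12) and Cxcr6 (14.4 and 10.6 against 8.29 and 3.83, adjusted p = 0.15) were not called. Cxcr3 (adjusted p = 0.16) and Xcr1 (0.084) missed the threshold without WT Treg 2. Cxcr3 (adjusted p = 0.062) and Xcr1 (0.12) missed the threshold without BATFKO Treg 1.

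Among the promoters of these genes, that of Ccr4 holds a composite of an IRF half-site (GAAA) directly before an AP-1 site (TGANTCA), the arrangement to which BATF and IRF4 are known to bind together. Promoters are the 250 bases before to 50 after the RefSeq gene start on GRCm38.p6 (mm10), given for 9339 of the tested genes, and were searched on both strands. The following stretches show that composite in Ccr4 and the AP-1 letters alone in the other 7, from genes that fell (Ccr4, Gzmb, Prdm1, Ctla2a, Ctla2b) and that rose (Gbp2, Il1rn, Zeb2), with the match in capitals, read 5′ to 3′ on the strand of the gene.
Ccr4: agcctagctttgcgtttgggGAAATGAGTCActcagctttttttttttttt
Gzmb: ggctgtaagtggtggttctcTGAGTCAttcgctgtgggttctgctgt
Prdm1: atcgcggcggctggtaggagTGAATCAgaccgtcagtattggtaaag
Ctla2a: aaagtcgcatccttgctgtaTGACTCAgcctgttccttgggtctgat
Ctla2b: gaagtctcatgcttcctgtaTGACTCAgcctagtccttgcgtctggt
Gbp2: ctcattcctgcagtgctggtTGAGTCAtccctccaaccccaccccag
Il1rn: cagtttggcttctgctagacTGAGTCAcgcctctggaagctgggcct
Zeb2: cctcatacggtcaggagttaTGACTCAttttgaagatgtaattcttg
They lie at chr9:114496661-114496711, minus strand (Ccr4), chr14:56262366-56262412, minus strand (Gzmb), chr10:44458770-44458816, minus strand (Prdm1), chr13:60936728-60936774, minus strand (Ctla2a), chr13:60897564-60897610, minus strand (Ctla2b), chr3:142620541-142620587, plus strand (Gbp2), chr2:24336699-24336745, plus strand (Il1rn) and chr2:45110383-45110429, minus strand (Zeb2), all upstream of the RefSeq start used. Those of Ccr4, Prdm1 and Zeb2 lie within the GENCODE M21 spans of these genes (114490316 to 114504916, 44437177 to 44528501 and 44983632 to 45117395), so that start is internal to the span. Zeb2 had a further match of the AP-1 letters in the stretch chr2:45110440-45110486. The 7-letter AP-1 motif TGANTCA, which reads the same on both strands, was found in 20 of 152 genes called lower that have a promoter entry (13.2%) and in 13 of 92 called higher (14.1%). It was found in 548 of all 9339 (5.87%), and in 74 of 919 (8.05%) of the genes that eTreg express at 2-fold or more of the cTreg level and that were not called here. The composite of GAAA directly followed by TGANTCA, which contains that motif, was in 9 of 9339 promoters (0.0964%), and Ccr4 was the one gene called lower that had it. The spaced composite of TTTC, any 4 bases and TGANTCA, which also contains the motif, was in 7 of 9339 (0.075%), 1 of them called lower. Matches are letters in a window and were not tested as binding sites.

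Several receptors that tune Treg activation fell too. Nrp1, neuropilin-1, a surface protein of thymus-derived Treg, had 391 and 394 CPM in WT and 179 and 139 in BATFKO Treg (-1.30 ± 0.17, edgeR adjusted p = 0.00021). The costimulator Icos had 297 and 225 against 123 and 103 CPM (-1.21 ± 0.16, adjusted p = 0.0002), and the co-inhibitory receptor Tigit 70.96 and 104 against 8.55 and 4.998 (-3.66 ± 0.51, adjusted p = 0.00029). Tigit was nearly lost in both knockout libraries, whereas Icos and Nrp1 kept a larger share of their level. Cd83 had 117 and 132 against 49.7 and 43.3 CPM (-1.42 ± 0.22, adjusted p = 0.00091), and the inhibitory receptor Cd200r1 42.7 and 24.4 against 16.7 and 7.497 (-1.45 ± 0.27, adjusted p = 0.0046). The chains of the IL-18 receptor moved together: Il18r1 went from 153 and 119 to 49.98 and 39.3 CPM (-1.60 ± 0.20, adjusted p = 9.3e-05) and Il18rap from 23.5 and 20.6 to 5.21 and 5.33 (-2.07 ± 0.21, adjusted p = 1.1e-05). Tgfbr3, the TGF-beta coreceptor betaglycan, had 33.03 and 35.2 against 17.6 and 24.5 CPM (-0.70 ± 0.15, adjusted p = 0.0099). Cd200r1 (adjusted p = 0.082) missed the threshold without WT Treg 1, and Tgfbr3 (adjusted p = 0.1) without WT Treg 2. Tgfbr3 (adjusted p = 0.14) missed the threshold without BATFKO Treg 1.

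Most other receptors were not called. Of 26 costimulatory and co-inhibitory receptors, 3 were lower (Icos, Tigit, Cd200r1) and 1 higher, the PD-1 ligand Cd274 at 151 and 158 against 192 and 211 CPM (0.38 ± 0.09, edgeR adjusted p = 0.019), with a median of -0.13 (-0.53 to -0.012). Of all genes, 1.64% were called lower and 1.05% higher. Pdcd1 itself had 66.2 and 92.7 CPM in WT and 47.8 and 33.8 in BATFKO Treg (adjusted p = 0.19). Of 36 cytokine receptor and signalling genes, Il18r1, Il18rap and Tgfbr3 were lower, and the median was 0.068 (-0.091 to 0.16). Among the 24 tested Treg core genes, Nrp1 and Cd83 were lower and Swap70, an adaptor that binds actin and phosphoinositides, higher at 111 and 112 against 179.7 and 142 CPM (0.54 ± 0.13, adjusted p = 0.03), with a median of -0.10 (-0.17 to -0.0317). Ctla4 had 974 and 1108 CPM in WT and 660.3 and 639 in BATFKO Treg; its knockout libraries lay below both wild-type ones, but it was not called (-0.68 ± 0.19, adjusted p = 0.074). With the replicate block Ctla4 was called (adjusted p = 0.027), and the Treg core list had 5 members lower and 2 higher. Cd274 (adjusted p = 0.1) and Swap70 (0.1) missed the threshold without WT Treg 1, and Cd274 (adjusted p = 0.054) and Swap70 (0.13) without WT Treg 2. Swap70 (adjusted p = 0.21) missed the threshold without BATFKO Treg 1, and Cd274 (adjusted p = 0.099) without BATFKO Treg 2.

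**Figure D2:**
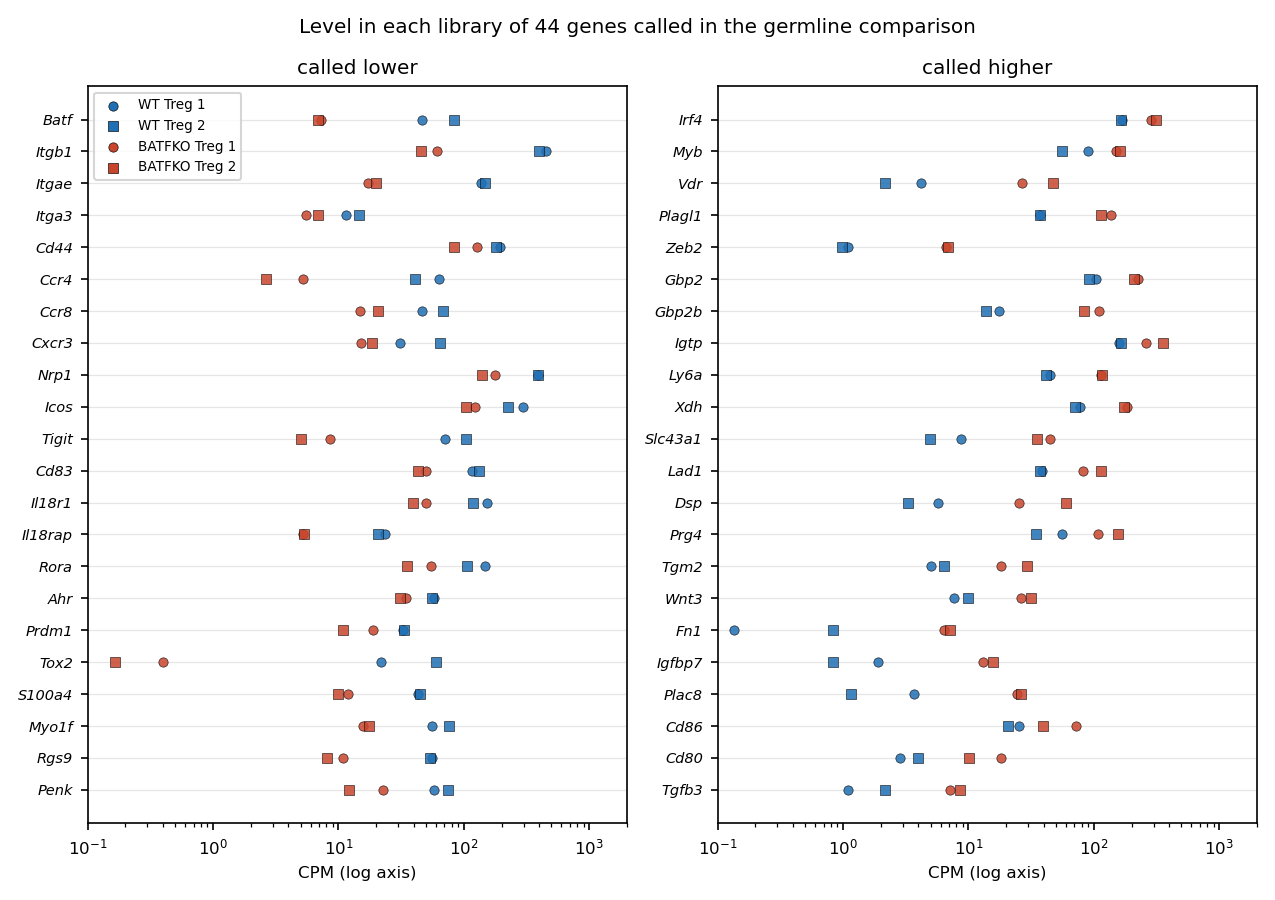
CPM (log axis) of 44 called genes in each of the 4 libraries, WT Treg in blue and BATFKO Treg in red, circles for library 1 and squares for library 2. In each row the pair of one colour lies wholly to one side of the other, which holds for all called genes. The distance between the pairs is widest for Tox2.

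Transcription factors of effector and tissue Treg were among the genes that fell. Tox2, an HMG-box factor linked to follicular helper cells, had 21.9 and 59.97 CPM in WT and 0.401 and 0.167 in BATFKO Treg (-7.04 ± 0.84, edgeR adjusted p = 7.9e-05), which is near absence in both knockout libraries despite the wide gap between the wild-type ones. Rora, a nuclear receptor of Th17 cells and skin Treg, had 147 and 106 against 54.4 and 34.98 CPM (-1.50 ± 0.18, adjusted p = 9.5e-05). The ligand-sensing factor Ahr had 57.5 and 56.2 against 34.3 and 30.8 CPM (-0.80 ± 0.18, adjusted p = 0.019). Prdm1 (Blimp-1), a regulator of effector Treg, had 32.6 and 33.4 against 18.98 and 10.8 (-1.13 ± 0.27, adjusted p = 0.029), and its antagonist Bcl6, of follicular cells, 53.4 and 66.6 against 35.3 and 35.98 (-0.75 ± 0.18, adjusted p = 0.027). Epas1 (HIF-2alpha; -1.62) also fell. Of 34 tested lineage and effector regulators 7 were called lower, and 2, Myb and Zeb2, higher, against 1.64% and 1.05% of all genes (median of the list -0.30, -0.42 to -0.12). The list had 4 members called lower without WT Treg 2. Ahr (adjusted p = 0.069) and Prdm1 (0.074) missed the threshold without WT Treg 1, and Ahr (adjusted p = 0.086), Prdm1 (0.13) and Bcl6 (0.26) without WT Treg 2. Bcl6 (adjusted p = 0.11) missed the threshold without BATFKO Treg 1, and Ahr (adjusted p = 0.11), Prdm1 (0.18) and Bcl6 (0.1) without BATFKO Treg 2.

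Some regulators rose. Myb, a factor of progenitor and resting lymphocytes, had 90.7 and 55.8 CPM in WT and 149.7 and 160.3 in BATFKO Treg (1.08 ± 0.20, edgeR adjusted p = 0.0044). Zeb2, a zinc-finger repressor of terminal effector cells, was low, 1.09 and 0.991 against 6.68 and 6.83 CPM (2.68 ± 0.46, adjusted p = 0.002), with both knockout libraries alike. Plagl1 (chromosome 10, 13060504 to 13131694), an imprinted zinc-finger gene, had 36.98 and 37.2 against 136 and 114 CPM (1.76 ± 0.24, adjusted p = 0.00028). The vitamin D receptor Vdr had 4.21 and 2.15 against 26.7 and 46.98 (3.49 ± 0.49, adjusted p = 0.00033). Of 17 nuclear hormone receptors 2 were higher (Vdr and Pparg) and 3 lower, among them Nr1d1 and Nr1d2, with a median of -0.30 (-0.45 to -0.0975), and 1 lower without WT Treg 2 or without BATFKO Treg 1. Irf4, the partner of BATF at composite sites, rose from 167 and 164 to 287 and 311 CPM (0.85 ± 0.12, adjusted p = 0.00042), with little spread in either group, and Irf1 from 488 and 626 to 682 and 1041 (0.63 ± 0.16, adjusted p = 0.039). Irf8, another partner, had 34.1 and 36.7 against 67.5 and 75.5 CPM and was not called (1.01 ± 0.32, adjusted p = 0.13). Of 8 IRF genes, Irf4 and Irf1 were called, both higher. Among all genes 1.05% were called higher and 1.64% lower. Of 25 AP-1, BACH and other basic leucine zipper factors, Batf and Cebpa were called lower and none higher (median -0.19, -0.58 to 0.042). Cebpa encodes C/EBP-alpha, neither an AP-1 nor a BACH protein, so no AP-1 or BACH factor other than Batf was called. Bach2 had 196 and 203 against 216 and 246 CPM (edgeR adjusted p = 0.43) and Nfil3 91.9 and 168 against 45.04 and 84.1 (adjusted p = 0.37, and 1.3e-05 with the replicate block). Irf1 (adjusted p = 0.22) missed the threshold without WT Treg 1, and Myb (adjusted p = 0.073) without WT Treg 2. Irf1 (adjusted p = 0.28) missed the threshold without BATFKO Treg 2.

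Genes for secreted and cytotoxic effector products fell in part. Penk, which encodes the opioid precursor proenkephalin of tissue Treg, had 58.3 and 74.5 CPM in WT and 22.9 and 12.2 in BATFKO Treg (-1.90 ± 0.26, edgeR adjusted p = 0.00029). Gzmb (granzyme B) had 12.1 and 3.8 against 2.67 and 1.33 (-1.97 ± 0.50, adjusted p = 0.039), and Cst7 (cystatin F) 38.5 and 53.9 against 25.1 and 11.5 (-1.31 ± 0.30, adjusted p = 0.02). The chemokine Ccl5 had 9.38 and 18.2 against 2.41 and 4.83 (-1.95 ± 0.37, adjusted p = 0.0048). Levels differed widely within each genotype for Gzmb, Cst7 and Ccl5; the groups did not overlap, which holds for all called genes. Of 20 suppressive and repair molecules, 3 were called lower (Penk, Cst7, Gzmb) and 1 higher (median -0.19, -0.61 to 0.18), but 1 lower without BATFKO Treg 2. The gene called higher was Il1rn, the secreted antagonist of the IL-1 receptor, at 0.544 and 0.826 CPM in WT and 5.61 and 6.997 in BATFKO Treg (3.20 ± 0.56, edgeR adjusted p = 0.0041). Among all genes 1.64% were called lower and 1.05% higher. Of 14 T helper cytokines Ccl5 alone was called; Il21 had 0.952 and 2.15 CPM in WT and 7.08 and 6.83 in BATFKO Treg (2.21 ± 0.78, adjusted p = 0.19). Gzmb (adjusted p = 0.43) missed the threshold without WT Treg 1, and Cst7 (adjusted p = 0.2) and Ccl5 (0.11) without WT Treg 2. Gzmb (adjusted p = 0.061) and Ccl5 (0.084) missed the threshold without BATFKO Treg 1, and Gzmb (adjusted p = 0.17) and Cst7 (0.16) without BATFKO Treg 2.

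Some growth factor ligands, not drawn from a list, were among the genes that rose, while other ligand genes were called lower. Tgfb3 (chromosome 12, 86056745 to 86079041) had 1.09 and 2.15 CPM in WT and 7.08 and 8.496 in BATFKO Treg (2.29 ± 0.39, edgeR adjusted p = 0.0019). The Wnt ligand Wnt3 had 7.61 and 9.91 against 26.2 and 31.8 CPM (1.73 ± 0.22, adjusted p = 0.00013), the cytokine Lif 23.1 and 17.2 against 35.8 and 39.1 (0.89), and Pdgfb 3.81 and 4.63 against 8.82 and 15.7 (1.53). Genes for CD80 and CD86, the ligands of CTLA-4 and CD28, also rose: Cd86 from 25.1 and 20.6 to 72.7 and 39.6 CPM (1.30 ± 0.25, adjusted p = 0.0047) and Cd80 from 2.85 and 3.96 to 18.04 and 10.2 (2.07 ± 0.43, adjusted p = 0.0097). Both are better known from antigen-presenting cells. B cell markers summed to 22.3 and 29.1 CPM in WT Treg and 49.5 and 42.7 in BATFKO Treg, with Ebf1 at 0, and dendritic cell markers to 8.97 and 9.25 against 15.9 and 12.8; monocyte and macrophage markers, at 19.2 and 22.8 against 17.0 and 21.5 CPM, overlapped. Of the 6 tested B cell markers none were called, and of the 12 dendritic ones 1, Xcr1, was. Xcr1 made up most of the rise of the dendritic sum. In the sorted WT cells the B cell markers summed to 20.3 and 23.5 CPM in cTreg and 66.7 and 64.9 in eTreg. The dendritic ones summed to 7.62 and 6.84 against 13.95 and 14.98, and the monocyte and macrophage ones to 16.4 and 22.6 against 32.0 and 50.2. Cd80 (log2 3.12, edgeR adjusted p = 6.9e-05) and Cd86 (0.82, 0.012) were also higher in eTreg. The part of antigen-presenting cells in the rises above was not tested. Pdgfb (adjusted p = 0.1) and Cd80 (0.084) missed the threshold without WT Treg 1, and Lif (adjusted p = 0.13), Pdgfb (0.063) and Cd86 (0.064) without WT Treg 2. Cd86 (adjusted p = 0.088) and Cd80 (0.1) missed the threshold without BATFKO Treg 1, and Pdgfb (adjusted p = 0.14) without BATFKO Treg 2.

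Several genes of signalling and the cytoskeleton fell. Rgs9, a GTPase activator that shuts off G protein signals, had 55.5 and 54.2 CPM in WT and 10.96 and 8.16 in BATFKO Treg (-2.51 ± 0.20, edgeR adjusted p = 5.8e-07). The phospholipase Plcb4 had 27.2 and 23.6 against 6.68 and 4.498 CPM (-2.17 ± 0.23, adjusted p = 1.7e-05), and Adap1, an ARF6 GTPase activator, 22.6 and 33.9 against 1.604 and 3.33 (-3.55 ± 0.31, adjusted p = 1.9e-06). Nav2, a cytoskeletal regulator of cell migration, had 92.8 and 142 against 18.2 and 15.3 CPM (-2.80 ± 0.34, adjusted p = 9.3e-05), and the clathrin adaptor Hip1 13.1 and 19.99 against 2.14 and 2.83 (-2.73 ± 0.31, adjusted p = 4.1e-05). Among all genes 1.64% were called lower and 1.05% higher. Of 27 tested genes for S100 proteins, annexins and cytoskeletal parts of effector cells, 3 were called lower and none higher (median 0.059, -0.054 to 0.20). They were Myo1f, a motor of leukocyte adhesion, at 55.6 and 75.99 against 15.6 and 17.5 CPM (-1.99 ± 0.26, adjusted p = 0.0002), S100a4 at 43.1 and 44.6 against 12.03 and 9.996 (-1.98 ± 0.26, adjusted p = 0.0002) and S100a6 at 33.99 and 33.9 against 14.3 and 10.5 (-1.44 ± 0.23, adjusted p = 0.0011). Lgals1 was not among them, at 83.9 and 104 CPM in WT and 137 and 137 in BATFKO Treg (adjusted p = 0.18).

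Interferon response genes lay mostly above 0, and 10 of 38 were called higher. Gbp2, a guanylate-binding protein that attacks the vacuoles of intracellular pathogens, had 105 and 91.2 CPM in WT and 223 and 209 in BATFKO Treg (1.14 ± 0.13, edgeR adjusted p = 7.4e-05). Ly6a (Sca-1), a surface protein induced by interferon and present on activated T cells, had 44.5 and 41.5 against 113 and 117 (1.42 ± 0.17, adjusted p = 8.0e-05). The immunity-related GTPase Igtp had 159.6 and 165 against 260.5 and 357 (0.93 ± 0.17, adjusted p = 0.0029). Libraries of a genotype were close together in Gbp2 and Ly6a. In all 3 genes every knockout library was above both wild-type ones, which holds for all genes called higher. Iigp1 varied more, at 72.2 and 39.5 against 178 and 98.6 CPM (1.30 ± 0.28, adjusted p = 0.011), as did Zbp1, a sensor of Z-form nucleic acid, at 136 and 133 against 181 and 284 (0.78 ± 0.15, adjusted p = 0.0046). The 10 called make 26.3% of the tested list, against 1.05% of all genes, and none were called lower; Gbp3, Gbp4, Gbp5 and Gbp10 were also called, with rises of 0.67, 0.66, 0.68 and 1.14. The median of the list was 0.59 (0.37 to 0.81), 37 of the 38 lay above 0, and in 24 both knockout libraries lay above both wild-type ones (11.1% among all genes). Irf7 split by library number, at 97.1 and 124 CPM in WT and 85 and 245 in BATFKO Treg (adjusted p = 0.49). Outside the list, Gbp2b had 17.5 and 13.7 against 109 and 83.1 CPM (2.62 ± 0.24, adjusted p = 3.0e-06) and Epsti1 131 and 126 against 206 and 212 (0.70 ± 0.09, adjusted p = 0.0002). Reads can be shared among Gbp genes, which are near relatives. The list's median was 0.30 between the libraries numbered 1 and 0.80 between those numbered 2, and its calls numbered 5 without WT Treg 2, 7 without BATFKO Treg 2, 12 without WT Treg 1 and 19 without BATFKO Treg 1. With the replicate block 24 of the 38 were called higher. Iigp1 (adjusted p = 0.15), Gbp4 (0.32), Gbp5 (0.17) and Gbp10 (0.16) missed the threshold without WT Treg 2. Iigp1 (adjusted p = 0.15), Gbp4 (0.11) and Gbp5 (0.13) missed the threshold without BATFKO Treg 1, and Zbp1 (adjusted p = 0.056), Gbp4 (0.07) and Gbp10 (0.1) without BATFKO Treg 2.

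Among the other rises, several genes belong to junctions and matrix. Dsp (desmoplakin, of desmosomes) had 5.71 and 3.304 CPM in WT and 25.5 and 59.97 in BATFKO Treg (3.21 ± 0.38, edgeR adjusted p = 7.3e-05), and Lad1 (ladinin, an anchoring filament protein) 38.9 and 37.3 against 82.1 and 113 (1.35 ± 0.17, adjusted p = 0.00013). Fn1 (fibronectin) had 0.136 and 0.826 against 6.41 and 7.16 CPM (3.87 ± 0.57, adjusted p = 0.00062), Igfbp7 1.903 and 0.826 against 13.1 and 15.8 (3.35 ± 0.61, adjusted p = 0.0044), and Gja1 (connexin 43) 0.6797 and 0.165 against 5.21 and 13.5 (4.34 ± 0.64, adjusted p = 0.0011). Lamb1, a laminin chain, had 1 and 1 reads in WT Treg and 44 and 87 in BATFKO Treg, a ratio of 65.1 (95% exact interval 17.7 to 544). Apart from Dsp and Lad1, these genes were nearly silent in both wild-type libraries and low in the knockout ones. The fibroblastic stroma marker list, which holds Fn1 and Igfbp7, summed to 5.98 and 7.10 CPM in WT and 22.6 and 25.3 in BATFKO Treg. Of its 10 tested members 2 were called, both higher. The rise of the sum came from Fn1 and Igfbp7. The other members of the list summed to less in each BATFKO Treg library than in either WT Treg library. Of the 20 members of the list 8 had 0 reads in all 4 libraries (Pdgfra, Dcn, Lum, Col6a1, Pdpn, Ccl19, Ccl21a and Cxcl13). Col1a1, a fibrillar collagen chain, had 1.495 and 2.81 CPM in WT and 0.802 and 1.17 in BATFKO Treg, and Acta2, smooth muscle actin, 1.22 and 1.16 against 1.203 and 0.4998. In the sorted WT cells this stroma list summed to 1.03 and 1.78 CPM in cTreg and 9.27 and 6.91 in eTreg. By edgeR's test Dsp (log2 4.72, adjusted p = 2.6e-06), Igfbp7 (7.27, 0.0036) and Gja1 (6.02, 0.011) were higher in eTreg than in cTreg. Lad1 was lower in eTreg (-2.85, adjusted p = 2.2e-09), and Fn1 (2.04, 0.14) and Lamb1 (1.38, 0.66) were not called. The part of stromal cells in these rises was not tested. The adipocyte and mesothelial markers summed to 1.63 and 2.15 CPM in WT and 10.02 and 4.67 in BATFKO Treg. In the sorted WT cells these markers summed to 0.188 and 0.594 CPM in cTreg and 4.205 and 4.033 in eTreg. They include Pparg, a regulator of fat cells and of Treg in fat, at 0.272 and 0.826 against 8.69 and 3.17 CPM (3.49 ± 0.58, adjusted p = 0.0018). The rise of the adipocyte and mesothelial sum from WT to BATFKO Treg came from Pparg. Sums of the other markers of that list overlapped between the genotypes, and Plin1, Msln, Krt8, Krt19 and Wt1 had 0 reads in all 4. The only endothelial marker called was Pecam1, which naive T cells also express, at 199 and 193 against 266 and 282 CPM, while Vwf, Tie1, Emcn, Cldn5 and Lyve1 had 0 reads. Igfbp7 (adjusted p = 0.06) missed the threshold without WT Treg 2.

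Further genes that rose, at low to high levels, had other roles. Xdh (xanthine dehydrogenase, an enzyme of purine breakdown) had 77.6 and 71.04 CPM in WT and 185 and 174 in BATFKO Treg (1.27 ± 0.11, edgeR adjusted p = 1.9e-06). Slc43a1, a transporter of large neutral amino acids, had 8.7 and 4.96 against 44.9 and 35.2 CPM (2.53 ± 0.27, adjusted p = 1.7e-05), while the transporter Slc7a10 had 48 and 109 reads in WT Treg and 0 and 0 in BATFKO Treg; these were the 2 called among 13 amino acid transport genes. The crosslinking enzyme Tgm2 had 5.03 and 6.44 against 18.04 and 29.3 CPM (2.04 ± 0.29, adjusted p = 0.00035), Prg4 (lubricin) 55.5 and 34.7 against 107 and 157 (1.54 ± 0.31, adjusted p = 0.0076), and the receptor phosphatase Ptprs 166 and 215 against 311 and 388 (0.88 ± 0.13, adjusted p = 0.00068). Samhd1, which hydrolyses deoxynucleotides, was the most abundant called gene named here, at 1152 and 941 against 1592 and 1472 CPM (0.55 ± 0.11, adjusted p = 0.0097). Ttn, encoding the muscle protein titin, rose from 150.5 and 245 to 580.4 and 331 CPM (1.21 ± 0.27, adjusted p = 0.014), and Plac8 from 3.67 and 1.16 to 24.6 and 26.3 (3.34 ± 0.43, adjusted p = 0.00016). Wild-type and knockout libraries stayed apart in these genes, which holds for all called genes. Ttn (adjusted p = 0.14) missed the threshold without WT Treg 1, and Prg4 (adjusted p = 0.11) and Samhd1 (0.14) without WT Treg 2. Samhd1 (adjusted p = 0.06) and Ttn (0.17) missed the threshold without BATFKO Treg 1, and Prg4 (adjusted p = 0.055) without BATFKO Treg 2.

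Several programs of T cells showed few calls or none. The shares among all tested genes were 1.64% called lower and 1.05% higher. Few or no calls in lists of this size thus do not set them apart from other genes. All 31 TCR signalling genes, 25 survival and death genes and 24 cholesterol and fatty acid synthesis genes were without a call by edgeR's test, with medians of 0.027 (-0.11 to 0.12), 0.066 (0.000325 to 0.19) and 0.076 (0.12 to 0.14). At an unadjusted p below 0.05 they held 4, 5 and 4 genes. DESeq2 called 1, 2 and 1 of them, and edgeR with the replicate block 6, 3 and 1. Of 32 cell cycle genes 1 was called, Cdkn2c, an inhibitor of CDK4 and CDK6, at 10.9 and 8.59 against 24.3 and 18.7 CPM (1.14 ± 0.23, adjusted p = 0.0075), and of 18 glycolysis genes 1, Ldha (0.35). Of 23 naive and resting T cell genes Pecam1 was called (0.48 ± 0.09, adjusted p = 0.0026) and none lower, with a median of 0.13 (-0.00246 to 0.15); the lymph node homing gene Ccr7 (270.3 and 491 against 289 and 833 CPM, adjusted p = 0.58) was not called. The 28 immediate early and dissociation stress genes also had no call by edgeR or DESeq2, with 2 at an unadjusted p below 0.05, 2 called with the replicate block and a median of -0.29 (-0.46 to 0.18). Klf4 (106 and 206 against 58.4 and 100.5 CPM) and Klf6 (959 and 1358 against 700 and 843) were higher in the library numbered 2 of both genotypes, and Hspa1a, a heat shock gene, had 11.6 and 47.9 in WT and 2.81 and 2.67 in BATFKO Treg (-3.42 ± 1.48, adjusted p = 0.35). The part of sorting stress in the called genes was not tested. Ldha (adjusted p = 0.1) missed the threshold without WT Treg 1, and Cdkn2c (adjusted p = 0.096) and Ldha (0.15) without WT Treg 2. Cdkn2c (adjusted p = 0.075) and Ldha (0.068) missed the threshold without BATFKO Treg 1, and Ldha (adjusted p = 0.1) without BATFKO Treg 2.

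**Figure D3:**
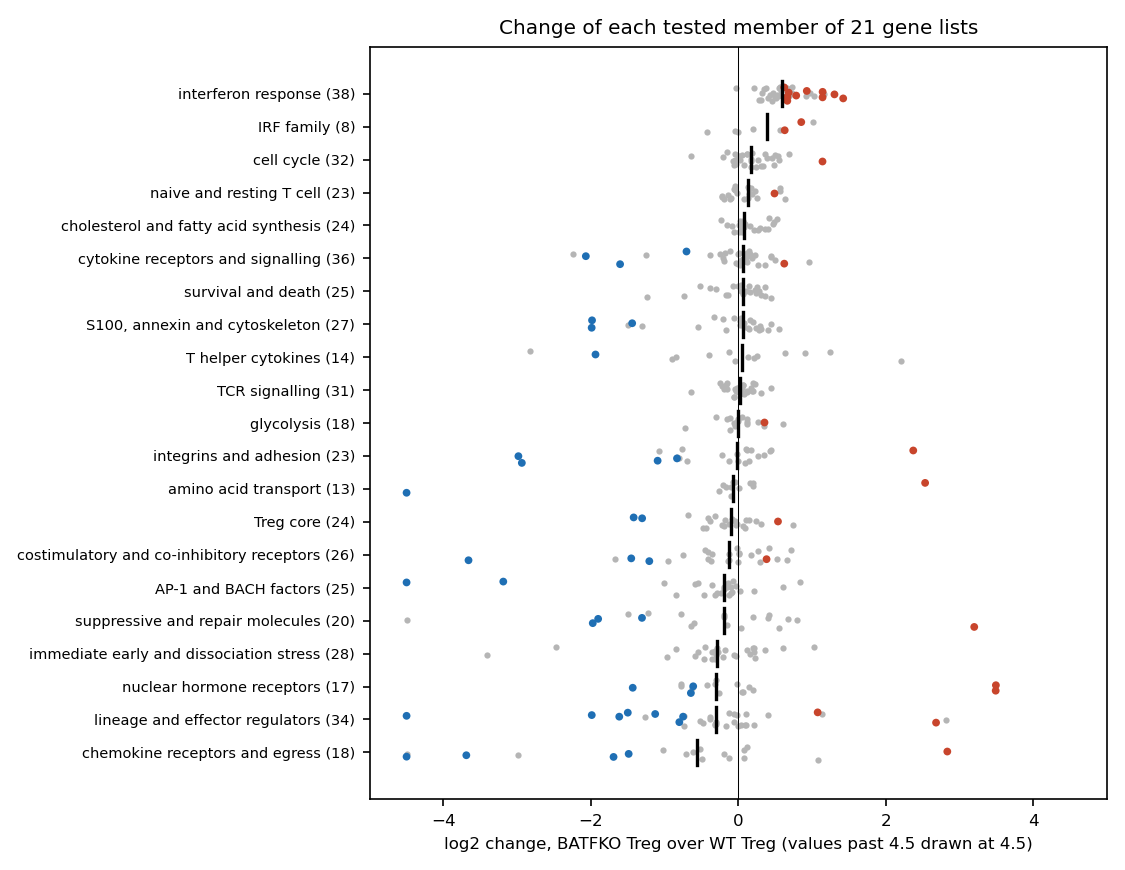
Log2 change of BATFKO over WT Treg (horizontal axis) for each tested member of 21 gene lists, with the number tested in brackets. Blue and red points are members called lower and higher, grey points members not called, and the black bar is the median of the list; the interferon response list lies to the right of 0 as a whole, while the lists of chemokine receptors and lineage regulators hold scattered large falls.

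The sorted WT populations show where the changed genes are normally used, with no library shared with the germline comparison. Of all tested genes, 18.8% were called higher and 12.3% lower in eTreg than in cTreg. Of the 201 genes called lower, 146 (72.6%) were eTreg-high (called in the sorted cells, with a 2-fold or larger rise from cTreg to eTreg), as were 1444 (11.8%) of all tested genes, and 2 were cTreg-high, the reverse. Without WT Treg 2 the eTreg-high genes called lower numbered 79, and with the replicate block 277. Of the 128 called higher, 36 (28.1%) were eTreg-high and 23 (18.0%) cTreg-high, against 3.97% cTreg-high among all genes. The change on BATF loss was graded with the eTreg difference among genes with a mean of at least 20 CPM in those sorted cells, Batf left out. The 49 genes over 16-fold higher in eTreg had a median of -1.02 (quartiles -1.99 and -0.285), with 42.9% called lower, the 108 genes 4 to 16-fold higher one of -0.55 with 28.7%, and the 241 genes 2 to 4-fold higher one of -0.23 with 11.2%. The 6705 genes within 2-fold had a median of 0.0095, with 0.582% called lower and 0.641% higher. Genes used more in cTreg lay slightly above 0, with medians of 0.064 for 144 genes 2 to 4-fold lower in eTreg and 0.17 for 34 genes over 4-fold lower, of which 8 and 3 were called higher. The fall was not uniform within the top group, where values ran from -7.52 for Cebpa to 1.21 for Ttn, and 42 of 49 were below 0.

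**Figure D4:**
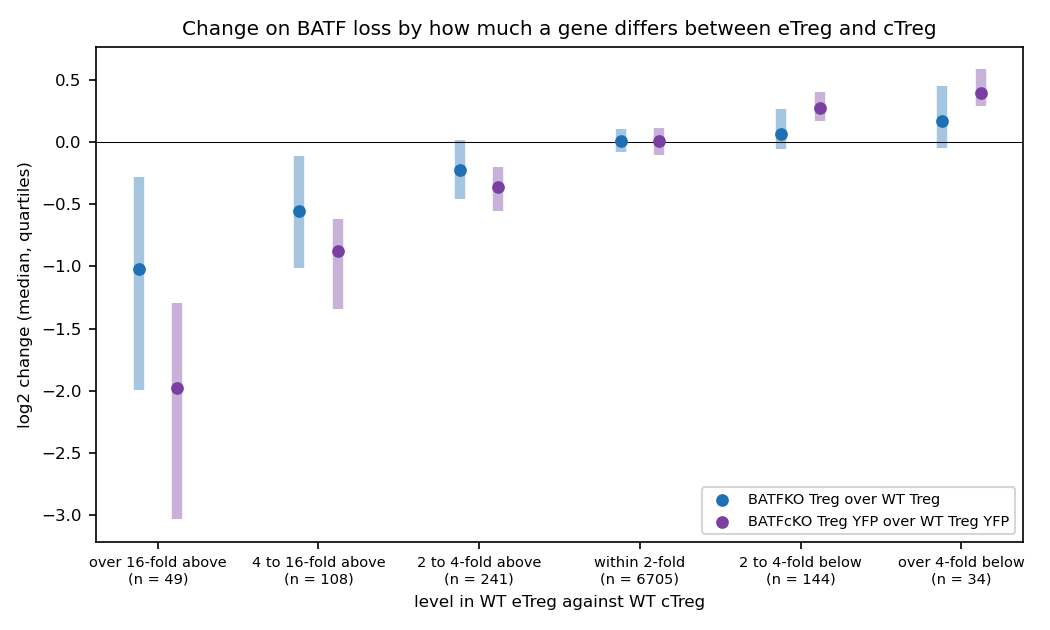
Median log2 change (points) and quartiles (bars) on BATF loss for genes grouped by their level in WT eTreg against WT cTreg, in germline loss (blue) and conditional loss (purple); n is the number of genes. In germline loss the median runs from -1.02 in the genes over 16-fold higher in eTreg to 0.17 in those over 4-fold lower, and in conditional loss from -1.98 to 0.396.

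The same genes were read in the conditional loss, whose libraries are separate from those of the germline comparison. There 39 genes (0.319%) were called higher and 210 (1.72%) lower. Of the 201 genes that fell in germline loss, Batf included, 102 were called lower there too (50.7% of the 201 and 48.6% of the 210), 195 had a change below 0, against 52.8% of all genes, and the median was -1.20. In 186 of them both BATFcKO libraries lay below both controls, as in 22.4% of all genes. Of the 128 genes that rose, 20 were called higher there (15.6% of the 128 and 51.3% of the 39), 109 had a change above 0 with a median of 0.42, and in 86 the libraries did not overlap (19.2% of all genes). No gene was called in opposite directions. The difference between the germline and conditional changes, tested as a contrast of the same model, was called for 0 genes by edgeR, with 633 at an unadjusted p below 0.05 (5.18%) and a smallest adjusted p of 0.158; DESeq2 called 11 and the edgeR fit with a replicate block 139. A larger effect in either model is therefore not shown for any single gene by edgeR's test without the block.

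Several adhesion, homing and regulator genes fell in both. Itgb1 changed by -2.86 ± 0.15 in conditional loss (edgeR adjusted p = 1.4e-09), Itgae by -2.47 ± 0.20 (adjusted p = 5.5e-07), Ccr4 by -3.33 ± 0.34 (adjusted p = 1.2e-05) and Rora by -2.27 ± 0.20 (adjusted p = 2.1e-06). S100a4 was at 61.98 and 78.4 CPM in WT Treg YFP and 4.997 and 3.86 in BATFcKO Treg YFP (-3.99 ± 0.30, adjusted p = 2.8e-07), a change whose difference from the germline one had an adjusted p of 0.25. Interferon response genes had 1 of 38 called there, Gbp2 at 0.59 ± 0.13, and a median of 0.17 in place of 0.59. Ly6a had 60.4 and 80.5 CPM in WT Treg YFP and 68.2 and 87.3 in BATFcKO Treg YFP (0.14 ± 0.17, adjusted p = 0.87), with an adjusted p of 0.17 for the difference. Cd86 (22.7 and 35.6 against 29.5 and 29.1 CPM), Fn1 (0.9998 and 0.1597 against 0.345 and 0.804) and Ttn (116 and 153 against 103 and 96.3) were likewise not called in the YFP libraries, and Hey1, a Notch target lower in germline loss (16.3 and 24.9 against 4.54 and 4.16 CPM), had 7.998 and 1.92 against 5.51 and 3.05 there. The adjusted p of the difference was 0.43 for Cd86, 0.43 for Fn1, 0.33 for Ttn and 0.65 for Hey1. Irf4 had 107 and 107 CPM in WT Treg YFP and 142 and 127 in BATFcKO Treg YFP (0.32 ± 0.13, adjusted p = 0.29). Batf itself had 67.8 and 58.5 CPM in WT Treg YFP and 19.5 and 15.9 in BATFcKO Treg YFP (-1.84 ± 0.30), with an adjusted p of 0.7 for the difference.

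**Figure D5:**
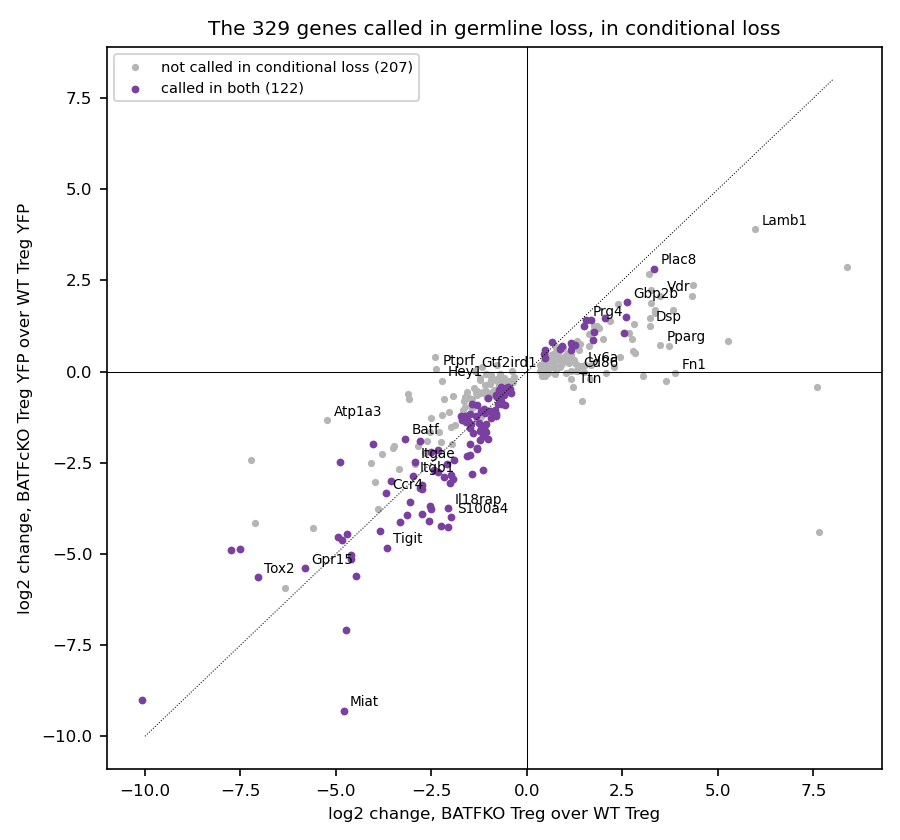
Log2 change in conditional loss (vertical axis) against that in germline loss (horizontal axis) for the 329 genes called in germline loss; purple points are the 122 genes called in both and the dotted line marks equal change. Falls lie near the dotted line, and most rises lie below it, closer to 0 in conditional loss.

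The genes around Batf on chromosome 12 were counted separately. Of 107 tested genes within 10 Mb of Batf 3 were called (2.8%, against 2.69% of all genes): Plekhg3, a regulator of cell polarity, with 6.53 and 16.02 CPM in WT and 0.535 and 0.333 in BATFKO Treg (-4.61 ± 0.64, edgeR adjusted p = 0.00029), Ston2 (stonin 2, an endocytic adaptor) with 2.72 and 3.8 against 0.267 and 0.4998 (-3.08 ± 0.46, adjusted p = 0.00062), and Tgfb3. Plekhg3 also fell in conditional loss (-5.04 ± 0.76, adjusted p = 0.00097), while Tgfb3 had 1.29 and 2.72 against 2.07 and 2.25 CPM there (0.13 ± 0.45, adjusted p = 0.96), and Ston2 2.29 and 1.597 against 1.21 and 1.13 (-0.74 ± 0.41, adjusted p = 0.63). Of 161 genes 10 to 30 Mb away 1.24% were called, and of 137 genes over 30 Mb away on the same chromosome 6.57%.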

How the data were processed

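Poly(A) RNA was enriched and made into libraries with a directional NEBNext Ultra or an UltraII kit, per the labels, which do not say which kit a library had. The deposited table holds read counts per gene for 24411 symbols; alignment was to mm10 with STAR 2.6.1c per the submitters' processing notes, and the use of strand in counting is not stated by the labels or notes. A further 4 columns match no sample and were not used. In R 4.3.3, edgeR 4.0.16 kept 12227 genes by its expression filter, removed 12184, and fitted 1 robust quasi-likelihood model with TMM scaling to 26 libraries in 13 groups (13 residual degrees of freedom). The SE is the log2 change over the square root of F. DESeq2 1.42.0, other scaling, no filter, a replicate block, fewer libraries and leaving out each library were alternatives. The labels state no pairing of same-numbered libraries, but the difference between libraries 2 and 1 correlated across genes at 0.645 to 0.7095 between the 3 pairs of groups of that set (WT Treg, BATFKO Treg, WT Tconv), so calls that the block changes are given beside the results. Ratios with 1 to 3 reads in a group have 95% exact intervals, which cover counting error only. Gene spans are from GENCODE M21.

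The genes, lists and tests were chosen with earlier results of these data known. Named are Batf, Foxp3, called genes averaging 5 CPM or more in one genotype with the largest changes, smallest p or highest level, called list members and up to 6 uncalled ones per list, and called genes within 10 Mb of Batf. Arntl, Cd4, Cd86, Ctla2a, Ctla2b, Hey1, Hlf, Lif, Lilr4b, Lilrb4a, Npas2, Pdgfb, Plxnb1, Plxnd1 and Tef were named after their values were seen. Some genes that the rule takes in are not reported here.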

Additional observations from a re-analysis of the deposited data

How the results depend on the processing

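The germline comparison called 329 genes, and between 331 and 460 with other size factors, without the expression filter or by DESeq2. With 1 library left out it called from 176 (without WT Treg 2) to 355 genes. Fitted on the 4 libraries alone, or on those and the WT Tconv pair, it called 2 genes. All 101 called genes named in the text kept their direction under every alternative run. Of the 101, 100 stayed called by DESeq2 (Ctla2b did not), 95 without the filter, 68 without WT Treg 2, and 1 when fitted on the 4 libraries alone. A replicate block, which treats same-numbered libraries as pairs, raised the calls to 1036 genes over all libraries and 898 over the 6 of that set. All 101 stayed called with the block over all libraries, and Ctla4, Itga5 and Nfil3 were called with it as well. It raised the calls of further lists by over 1.5 times. Lineage regulators went to 12 lower and 4 higher, and the list of AP-1, BACH and other basic leucine zipper factors to 5 lower. Costimulatory receptors went to 7 lower and 4 higher, suppressive molecules to 6 lower and 3 higher, and nuclear receptors to 6 lower. Adhesion, cytokine receptor and naive genes went to 4, 5 and 3 higher. Conditional loss called 249 genes, 1115 with the replicate block, 378 on its 4 libraries alone and 73 to 160 with 1 library left out. The eTreg comparison called 3800, 5973 with the replicate block, 5852 on its 4 libraries alone and 2679 to 3017 with 1 left out. The difference of germline and conditional changes called 0, 139 with the replicate block, 6 without the filter, 11 by DESeq2 and 0 to 23 with 1 library left out.

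Signs turned for 5 genes that were not called. With 1 library left out, the change of Ccr7 ran from -0.38 to 1.13, of Irf7 from -0.37 to 1.15, of Foxp3 from -0.14 to 0.34, of Cd4 from -0.037 to 0.25 and of Acta2 from -1.24 to 0.025; between the libraries numbered 1, an alternative chosen after seeing the data, Irf7 changed by -0.18. That comparison called 246 genes for number 1 and 367 for number 2. With 2 libraries a group, genes of a few CPM have wide errors, and low genes such as Xcr1 or Fn1 rest on few reads. The cause of these dependences was not tested.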

Other observations

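Genes of the circadian clock, a list drawn up after several of them were seen among the falls and so given no test, lay mostly below 0 in BATFKO Treg. Of 19 listed and tested genes 8 were called lower, Rora among them, and none higher, against 1.64% and 1.05% of all genes. Of the 19, 18 lay below 0, with a median of -0.64 (-0.88 to -0.449). The clock activator Arntl had 54.1 and 52.2 CPM in WT and 39.96 and 38.5 in BATFKO Treg (-0.44 ± 0.10, edgeR adjusted p = 0.017), and its partner Npas2, a paralog of CLOCK, had 21 and 10 reads in WT Treg and 2 and 0 in BATFKO Treg, a ratio of 15.6 (95% exact interval 3.97 to 134). The repressors Nr1d1 and Nr1d2 (REV-ERBs) had 11.4 and 16.02 against 3.34 and 6.997 CPM (-1.43 ± 0.33, adjusted p = 0.02) and 56.1 and 50.7 against 35.5 and 32.8 (-0.64 ± 0.12, adjusted p = 0.0043), and the PAR bZIP factors Tef and Hlf 67.7 and 70.04 against 48.2 and 50.98 (-0.47 ± 0.09, adjusted p = 0.0073) and 2.85 and 4.13 against 0.535 and 0 (-3.50 ± 0.81, adjusted p = 0.021). In the sorted WT cells each clock gene named here was called higher in eTreg than in cTreg. The log2 differences were 4.73 for Npas2, 4.63 for Hlf, 3.04 for Rora, 1.94 for Nr1d1, 1.16 for Arntl, 0.85 for Nr1d2 and 0.40 for Tef (edgeR adjusted p = 0.0019 for Tef). In conditional loss 3 of the 19 were called lower, with a median of -0.49. Without WT Treg 2, 4 of the 19 were called in germline loss, and 5 without any other of the 4 libraries. Hours of collection are not given in the labels, and their part was not tested. Arntl (adjusted p = 0.082) and Npas2 (0.13) missed the threshold without WT Treg 1, and Arntl (adjusted p = 0.076), Nr1d1 (0.19), Tef (0.086) and Hlf (0.14) without WT Treg 2. Nr1d1 (adjusted p = 0.2) and Tef (0.058) missed the threshold without BATFKO Treg 1, and Arntl (adjusted p = 0.1), Npas2 (0.11) and Hlf (0.13) without BATFKO Treg 2.

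Pairs of related genes fell together outside the lists. Ctla2a and Ctla2b, neighbouring genes for cysteine protease inhibitors, had 7.07 and 6.28 against 1.604 and 1.499 CPM and, for Ctla2b, 1.22 and 1.32 against 0 and 0.167; the inhibitory receptors Lilrb4a and Lilr4b had 10.3 and 12.9 against 1.87 and 3.998 and 6.39 and 9.42 against 1.74 and 1.999. Reads can be shared within each pair, so their separate values are uncertain. The semaphorins Sema6d (7.48 and 16.5 against 0.535 and 0.333 CPM, -4.70 ± 0.59) and Sema4f (22.97 and 26.8 against 7.88 and 11.99, -1.34 ± 0.18) fell, as did the plexins Plxnb1 (-1.12 ± 0.28) and Plxnd1 (-0.73 ± 0.15), which are receptors of semaphorins. Plxnb1 (adjusted p = 0.37) and Plxnd1 (0.061) missed the threshold without WT Treg 2. Plxnb1 (adjusted p = 0.17) and Plxnd1 (0.1) missed the threshold without BATFKO Treg 1, and Plxnb1 (adjusted p = 0.075) without BATFKO Treg 2.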
